A study of Homo sapiens with 4 samples.

Results

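The 6 genes described here, FHIT, WWOX, MACROD2, IMMP2L, LRP1B and DLG2, are very long human genes that lie in common fragile sites. They were followed in peak lists from CLIP-seq of SAF-A in the line HCT116. SAF-A (hnRNP U, or scaffold attachment factor A) is an abundant nuclear protein that binds RNA and chromatin. In CLIP-seq, RNA is crosslinked to protein with ultraviolet light, the protein is immunoprecipitated, and the attached RNA fragments are sequenced. HCT116 is an established colorectal carcinoma line, here with wild-type SAF-A and with no treatment named in the labels. There were 2 pull-down samples, made with a SAF-A antibody, and 2 input samples taken from the same kind of lysate without antibody. RNA of both kinds was recovered from the membrane region at and just above the size of SAF-A, which makes the input a background matched for size. Nothing in the labels says that replicates came from separate cultures, so every p-value below reflects only how far these samples lie apart, and that spread can be technical.

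A peak was a member when its midpoint lay in one of the 6 gene intervals, on either strand. This gave 1002 of the 278959 listed peaks. By library, 82 of 29386 peaks in input replicate 1 were members, 129 of 42256 in input replicate 2, 361 of 96061 in pull-down replicate 1 and 430 of 111256 in pull-down replicate 2. The pull-down lists were longer than the input lists, so counts were set against list length, as peaks per 10000 listed peaks. Read depth is unknown, because the lists hold peaks and not reads, and the RNA level of the 6 genes was not measured here. The submitters' processing notes name GRCh38, but 1214 of 278492 nuclear peaks run beyond their chromosome as it ends in GRCh38 and 0 beyond its GRCh37 end, so positions are given as GRCh37.

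Common fragile sites are stretches of chromosome that tend to break or to stay incompletely copied when DNA replication is slowed. Many of them coincide with very long genes, in which transcription of a single RNA takes many hours and can run into the time of replication. These genes are frequent places of deletion in tumours. Almost all of their length is intron.

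The members differ in what their proteins do. FHIT, the fragile histidine triad protein, is a hydrolase of dinucleotides and a candidate tumour suppressor, and its interval runs on the minus strand at chr3:59735036-61237133. WWOX is a WW-domain oxidoreductase, also described as a tumour suppressor, on the plus strand at chr16:78133310-79246564. MACROD2, on the plus strand at chr20:13976146-16033842, removes ADP-ribose from proteins. IMMP2L, a catalytic subunit of the inner mitochondrial membrane peptidase, lies on the minus strand at chr7:110303106-111202588. LRP1B, a large endocytic receptor of the LDL receptor family, lies on the minus strand at chr2:140988992-142889270. DLG2, a scaffold protein of synapses, lies on the minus strand at chr11:83166055-85338314. Together the intervals cover 9.65 Mb, from 0.899 Mb for IMMP2L to 2.17 Mb for DLG2. RefSeq on GRCh38.p14, used for names alone, places 6 to 15 other genes inside each. Of these only FLRT3, inside MACROD2, and LRRN3, inside IMMP2L, are protein-coding, and both lie on the strand opposite to their host. Long noncoding RNA genes also lie on the opposite strand inside FHIT, WWOX, MACROD2, LRP1B and DLG2, among them WWOX-AS2 and MACROD2-AS1. WWOX and MACROD2 hold such genes on the gene strand too. For those in IMMP2L and some others, no strand was available.

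Over all 6 genes, the strand they are transcribed from held a larger share of the peaks after SAF-A pull-down than in the inputs. Set against list length, the gene-strand excess of the pull-downs was mostly in peaks of at least 50 bases, called wide below. It lay mainly in IMMP2L, WWOX and FHIT. Input replicate 1 had 35 peaks on the gene strand and 47 on the opposite strand, and input replicate 2 had 55 and 74. Pull-down replicate 1 had 185 and 176, and pull-down replicate 2 had 237 and 193. The gene strand thus held 42.7% and 42.6% of member peaks in the inputs against 51.2% and 55.1% in the pull-downs, and the groups did not overlap. How often this share separates the groups was not counted over all features. Gene by gene, the mean share was higher after pull-down in FHIT, WWOX, IMMP2L and DLG2 and lower in MACROD2 and LRP1B. These shares rest on only 7 to 35 peaks per gene in a single input library. Over the 6 genes together the difference was 10.5 percentage points, and 3.84 with every list reduced to the length of the shortest. With peaks of a library within 100 bases merged it was 7.75. The 95% Wilson intervals of the single libraries ran from 32.5% to 53.5% and from 34.4% to 51.3% for the inputs, from 46.1% to 56.4% and from 50.4% to 59.8% for the pull-downs, and cover counting error only. The two-sided exact permutation test over the 4 samples gave p = 0.33, the smallest it can give in this design. Per 10000 listed peaks, the gene strand held 20.3 ± 1.4 peaks (SD, n = 2) in the pull-downs against 12.5 ± 0.8 in the inputs, a log2 ratio of 0.70, and these groups did not overlap either. A non-overlapping share of the list is common: over all features tested below, 34.7% had a higher share in each pull-down than in either input, and 30% a lower one. The ratio was 0.47 at equal list length, 0.14 among the 50% of peaks with the higher scores and 0.084 with peaks under 50 bases alone. The opposite strand held 17.8 ± 0.7 against 16.8 ± 1.1, and there the groups overlapped. Among the 50% of each list with the higher scores the strand difference was -0.18 points, so its direction is not kept there.

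**Figure D1:**
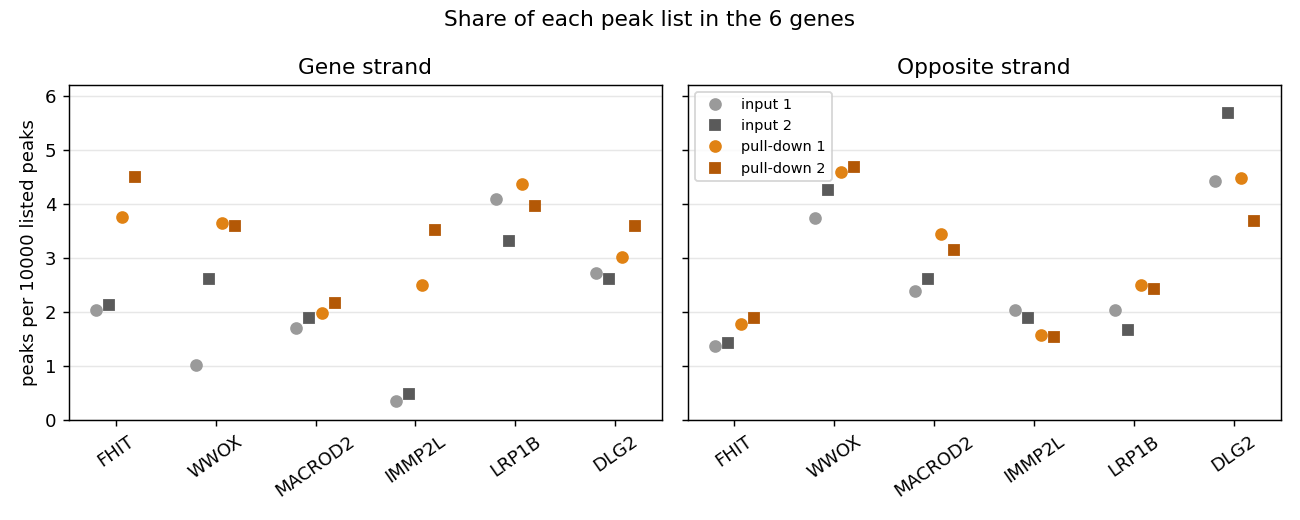
Peaks per 10000 listed peaks (vertical axis) in each of the 6 genes (horizontal axis), on the gene strand (left) and the opposite strand (right); each symbol is 1 library, grey for inputs and orange for pull-downs, circles for replicate 1 and squares for replicate 2. On the gene strand FHIT, WWOX and IMMP2L have their orange symbols clear above the grey ones, with IMMP2L at 0.34 and 0.47 for the inputs against 2.50 and 3.51 for the pull-downs.

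Among peaks under 50 bases, called narrow, the opposite strand was in the majority in all 4 libraries. Its counterpart, the gene strand, held 41.3% and 39.7% of narrow member peaks in the inputs against 42.5% and 44.5% after pull-down, a difference of 3.03 points. Among wide peaks the picture was the reverse. Pull-down replicate 1 had 61 wide peaks on the gene strand and 8 on the opposite strand, and pull-down replicate 2 had 91 and 11, so the gene strand held 88.4% and 89.2%. The inputs had 2 and 7 wide peaks on the gene strand and 0 and 1 on the opposite strand, too few to read a strand share from. Wide peaks were 33.0% and 38.4% of gene-strand member peaks after pull-down against 5.71% and 12.7% in the inputs, a difference of 26.5 points (exact permutation p of 0.33, the smallest possible). This difference was 5.46 points at equal list length and 13.6 points among the 50% of peaks with the higher scores, in the same direction. Over the whole lists the order was the other way, with wide peaks at 17.7% ± 2.1 (SD, n = 2) after pull-down and 24.3% ± 3.1 for the inputs.

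The wide gene-strand peaks were not spread evenly over the 6 genes. IMMP2L had 16 and 31 in the pull-downs, against 2 and 1 on its opposite strand. FHIT had 19 and 20 against 0 and 1, and WWOX had 14 and 25 against 2 and 3. LRP1B had 7 and 9 against 1 and 1. The other two had few on either strand. MACROD2 had 2 and 3 against 1 and 1, and DLG2 had 3 and 3 against 2 and 4. In the inputs no gene had more than 2 wide gene-strand peaks in a library, and MACROD2 and LRP1B had 0 in both.

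**Figure D2:**
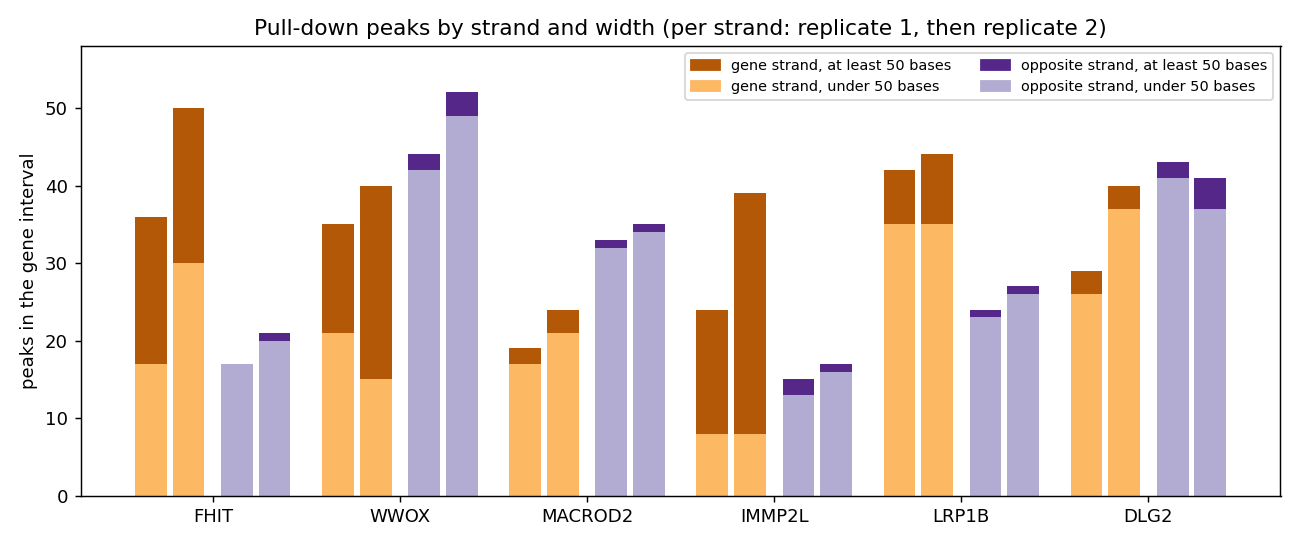
Number of pull-down peaks (vertical axis) in each gene (horizontal axis); each pair of bars is replicate 1 and then replicate 2, orange for the gene strand and purple for the opposite strand, with the dark part for peaks of at least 50 bases and the light part for narrower ones. The dark parts are tall on the gene strand of FHIT, WWOX and IMMP2L and short on every opposite strand, where they hold 0 to 4 peaks.

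To set the genes against the rest of the genome, each gene interval and every other 1 Mb window was counted on each strand apart. limma was fitted to the log2 share of the list (0.5 added to each count, per 10000) of every feature that averaged 10 peaks or more. After Benjamini-Hochberg adjustment at 0.05, limma called 21.8% of 3217 features between pull-down and input, 9.2% higher and 12.6% lower in the pull-downs. It called 3 of the 6 gene strands, FHIT, WWOX and IMMP2L, and all 3 were higher in the pull-downs. It called 0 of the 6 opposite strands, and 0 of them had an unadjusted p under 0.05. Of the 6 gene strands, only LRP1B held 10 or more peaks in each input. FHIT, WWOX and IMMP2L thus met the minimum through their pull-down peaks, and a filter met in this way favours higher values in the pull-downs.

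IMMP2L, the mitochondrial peptidase gene, had the largest ratio of the 6. Its gene strand held 1 and 2 peaks in the inputs against 24 and 39 after pull-down. Both pull-downs lie far above both inputs, and the ratio rests on 3 input peaks in all. As peaks per listed peak, pooled over libraries, the ratio was 7.26, with an exact 95% counting interval from 2.37 to 36.1. That interval covers counting error only and leaves out the spread between libraries. limma gave a log2 ratio of 2.45 (SE 0.23, adjusted p = 8.2e-05). The gene strand of IMMP2L fell under the minimum, and was not tested, without pull-down replicate 2 and at a minimum mean of 20. The opposite strand of IMMP2L went the other way in value, with 6 and 8 peaks in the inputs against 15 and 17 after pull-down, a log2 ratio of -0.40 that did not pass (limma adjusted p = 0.25).

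FHIT had 6 and 9 gene-strand peaks in the inputs against 36 and 50 after pull-down. Per 10000 listed peaks this is 2.04 and 2.13 against 3.75 and 4.49, so the groups did not overlap. The limma log2 ratio was 0.90 (SE 0.21, adjusted p = 0.0099). Without pull-down replicate 2 it was 0.77 and no longer passed (limma adjusted p = 0.087). The opposite strand of FHIT had 4 and 6 peaks in the inputs against 17 and 21 after pull-down, a log2 ratio of 0.29 that did not pass (limma adjusted p = 0.39).

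WWOX had 3 and 11 gene-strand peaks in the inputs against 35 and 40 after pull-down. The pull-downs lay close together, at 3.64 and 3.60 per 10000 listed peaks, while the inputs lay apart, at 1.02 and 2.60. The limma log2 ratio was 1.03 (SE 0.32, adjusted p = 0.042). This call rests on input replicate 1: without it the log2 ratio was 0.43 (limma adjusted p = 0.16). The call was also lost without pull-down replicate 1, with no minimum count and with each library centred on its median feature, at limma adjusted p of 0.10, 0.066 and 0.057, while the log2 ratio stayed at 1.02, 1.03 and 1.08. The opposite strand of WWOX held more peaks than its gene strand in every library, 11 and 18 for the inputs against 44 and 52 after pull-down, and its log2 ratio between groups was 0.18 (limma adjusted p = 0.57).

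The other 3 gene strands did not pass. LRP1B was the most peak-rich of them, with 12 and 14 gene-strand peaks in the inputs against 42 and 44 after pull-down (log2 0.14, limma adjusted p = 0.68). Per 10000 listed peaks its groups overlapped, at 4.08 and 3.31 against 4.37 and 3.95. DLG2 had 8 and 11 against 29 and 40 (log2 0.25, limma adjusted p = 0.41). MACROD2 had 5 and 8 against 19 and 24 (log2 0.12, limma adjusted p = 0.72). Fewer members could be tested in shorter lists. Among the 50% of peaks with the higher scores, FHIT had a log2 ratio of 0.63 that did not pass (limma adjusted p = 0.14), and WWOX and IMMP2L fell under the minimum. With every list reduced to the length of the shortest, LRP1B alone reached it, and was called at 0.53 (limma adjusted p = 0.037), where limma called 35.9% of 423 features, 16 of them higher.

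**Figure D3:**
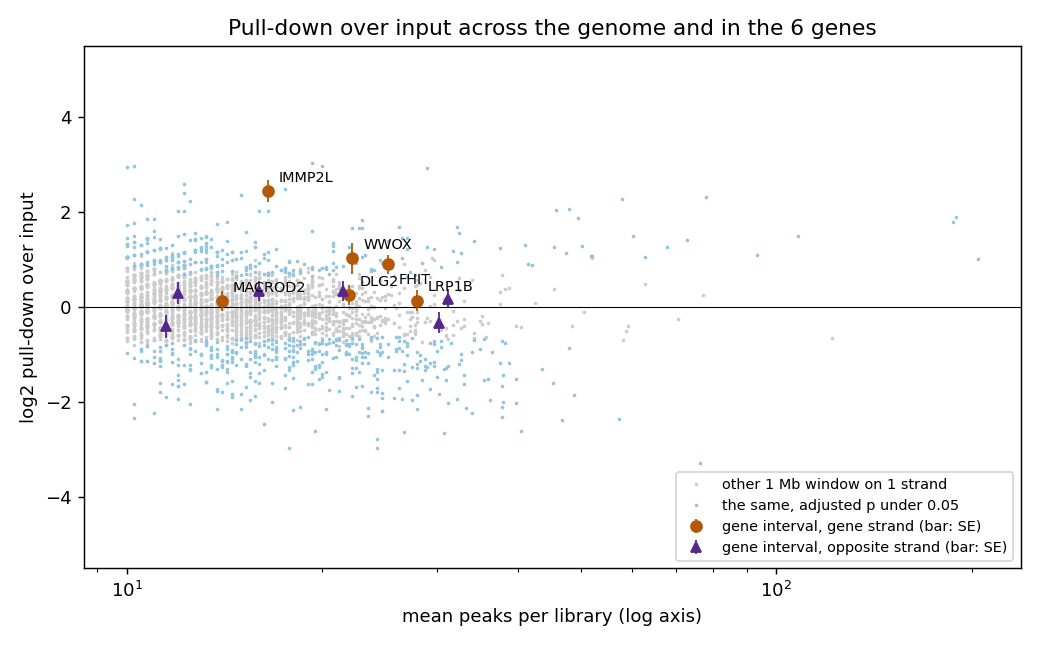
Log2 ratio of pull-down over input (vertical axis) against the mean number of peaks per library (horizontal log axis); small points are 1 Mb windows on 1 strand, blue where the limma adjusted p is under 0.05, and large symbols are the 6 genes, orange circles for the gene strand and purple triangles for the opposite strand, with bars for the SE. IMMP2L at 2.45 stands among the highest points of the plot, FHIT at 0.90 and WWOX at 1.03 stand above the other 3 genes, and the opposite strands lie between -0.40 and 0.34.

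The same fit was run on wide and on narrow peaks apart. For wide peaks only the gene strands of FHIT, WWOX and IMMP2L reached the minimum mean of 10 peaks. Each did so through the pull-downs, and a filter met in this way favours higher values in the pull-downs. Their limma log2 ratios were 2.27, 3.01 and 3.62, and 63.5% of the 230 features that reached the minimum were called, with 26.1% called higher in the pull-downs. Pooled over libraries, wide gene-strand peaks per listed peak were 16.2 times as frequent in the pull-downs in IMMP2L (exact 95% counting interval 2.78 to 655). The ratio was 6.74 in WWOX (1.74 to 57.6) and 4.49 in FHIT (1.43 to 22.7). These intervals cover counting error only and leave out the spread between libraries. The 3 genes entered through their pull-down peaks, so these ratios are a description. In LRP1B, with 0 in the inputs, the ratio was 1.84 with the inputs set at a floor of 3 peaks over the group. That value leaves out the counting error of the pull-down peaks, so it is no lower limit. For narrow peaks limma called 0 of the 5 gene strands that reached the minimum, against 9.72% of 2366 features. The narrow log2 ratios of FHIT and WWOX were 0.17 and -0.01, with limma adjusted p of 0.69 and 0.98. IMMP2L had too few narrow gene-strand peaks to enter, 1 and 1 for the inputs against 8 and 8 after pull-down.

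The largest change of strand was again in IMMP2L. Its gene strand held 14.3% and 20.0% of its peaks in the inputs against 61.5% and 69.6% after pull-down. A second contrast of the strand ratio, pull-down minus input, was added after the lists had been examined. It gave IMMP2L a difference of 2.86 in log2 gene strand over opposite strand (SE 0.33, limma adjusted p = 0.032), from -1.94 in the inputs to 0.92 in the pull-downs. limma called 3.33% of 2762 features in this contrast, and IMMP2L was the only one of the 6 genes called. The call is not firm: it was lost without input replicate 1, without pull-down replicate 1, without pull-down replicate 2, with 500 kb windows as the rest and with no minimum count, where limma adjusted p were 0.081, 0.48, 0.48, 0.059 and 0.074. The difference itself was 2.68, 3.12 and 2.60 with those libraries left out and 2.86 under the last 2 settings. WWOX and FHIT had differences of 0.85 and 0.61 that did not pass (limma adjusted p of 0.20 for each). With wide peaks alone limma called 0 of the 3 genes tested, against 0.256% of 391 features, and with narrow peaks alone 0 of 6, against 0.258% of 2708 features, while 108 and 607 features had an unadjusted p under 0.05.

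Averaged over inputs and pull-downs, limma called a strand imbalance in all 6 genes, against 45.6% of 2762 features. FHIT and LRP1B had more peaks on the gene strand, with log2 ratios of 0.84 (SE 0.13, adjusted p = 0.0033) and 0.85 (SE 0.13, adjusted p = 0.0028). These are fold differences of 1.793 and 1.797. In LRP1B the gene strand held 66.7% and 66.7% of peaks in the inputs against 63.6% and 62.0% after pull-down. The Wilson intervals of its inputs, 43.7% to 83.7% and 45.4% to 82.8%, include an even split. The inputs were not tested alone. The opposite strand was richer in WWOX (-0.78), DLG2 (-0.59), MACROD2 (-0.55) and IMMP2L (-0.51), with limma adjusted p from 0.015 to 0.042. Without either pull-down replicate limma called 0 of the 6 genes and 0 features in all, while 759 and 712 features had an unadjusted p under 0.05.

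Counted by width, that ratio took different signs in WWOX and IMMP2L. In IMMP2L it is also a mean of opposite signs, since inputs and pull-downs lean to different strands. Counting wide peaks alone, the log2 ratio of gene strand over opposite strand was 1.93 in WWOX (SE 0.46), 2.17 in IMMP2L (SE 0.44) and 3.24 in FHIT (SE 0.42). These 3 genes reached the minimum for wide peaks through the gene-strand peaks of the pull-downs, so the ratios are a description, and limma called 64.2% of the 391 features that reached it. Counting narrow peaks alone, the opposite strand was richer, with log2 ratios of -1.56 in IMMP2L and -1.33 in WWOX (limma adjusted p of 0.0021 and 0.0026), and 5 of the 6 genes were called, against 41.9% of 2708 features. The gene strand of LRP1B stayed richer in narrow peaks (0.73, limma adjusted p = 0.0075), and narrow peaks of FHIT had a ratio of 0.27 that did not pass (limma adjusted p = 0.23).

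A single spot held many of the peaks on the opposite strand of DLG2. At chr11:85194904-85195246, a stretch of 343 bases, 29 peaks of the 4 libraries followed each other within 100 bases, 7 and 11 from the inputs, 5 and 6 from the pull-downs. Elsewhere in DLG2 the opposite strand had 6 and 13 input peaks against 38 and 35 after pull-down. With peaks of a library within 100 bases merged, the DLG2 strand ratio was -0.18 and no longer passed (limma adjusted p = 0.38). The strand difference over all 6 genes, 10.5 points between pull-down and input, was then 7.75 points. On the other 11 gene or opposite strands the longest such chain held 4 peaks, 1 from each library.

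The genes were then compared with stretches of their own length on either side, on the same strand. These flanks can hold other genes, so the values are a description with no test. In the pull-downs, gene-strand peaks per Mb in IMMP2L were 1.66 and 2.36 times those of its flanks, and in the inputs 0.25 and 0.44 times. WWOX stood at 1.37 and 1.70 in the pull-downs against 0.46 and 1.29 in the inputs, and FHIT at 1.01 and 1.37 against 0.60 and 0.69. LRP1B was denser than its flanks in all 4 libraries, at 1.41 and 1.47 for the inputs against 1.53 and 1.47. MACROD2 stayed sparser than its flanks in all 4, and DLG2 lay between 0.91 and 1.22.

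For wide peaks alone, the densities of IMMP2L, WWOX and FHIT were several times those of their flanks. IMMP2L held 17.8 and 34.5 wide gene-strand peaks per Mb in the pull-downs, and its flanks 1.67 and 3.34. WWOX held 12.6 and 22.5 against 0.90 and 2.25, and FHIT held 12.6 and 13.3 against 1.66 and 1.66. LRP1B was also denser than its flanks, at 3.68 and 4.74 against 1.32 and 1.05. MACROD2 held 0.97 and 1.46 against 1.21 and 1.21, and DLG2 held 1.38 and 1.38 against 1.38 and 2.99. Among the 5562 stretches of 1 Mb on 1 strand that could be compared, the mean wide density of IMMP2L lay at percentile 99.4, that of WWOX at 98.4 and that of FHIT at 96.4, while LRP1B lay at 76.1 and MACROD2 and DLG2 each at 39.5. The narrow peaks on the opposite strand of WWOX were as extreme in density, at percentile 99.4 of 5776 stretches.

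Along the genes, the wide peaks of IMMP2L lay toward its start. Of its wide gene-strand peaks, 14 of 16 and 26 of 31 fell in the 50% of the interval nearest the start, with median distances of 180 and 219 kb in a gene of 899 kb. In 5 equal parts of the gene, counted from the start, the numbers were 8, 5, 1, 1 and 1 in pull-down replicate 1 and 11, 13, 4, 0 and 3 in replicate 2. Both pull-downs thus had most of them in the first 2 of these parts. The fewer wide gene-strand peaks of LRP1B also lay toward its start in the pull-downs, 6 of 7 and 6 of 9 in the nearest 50%. Their median positions were at 21.95% and 25.59% of the LRP1B interval. FHIT and WWOX showed no such lean. Median positions were at 51.6% and 54.1% of the FHIT interval and at 51.9% and 45.1% of the WWOX interval. Over all gene-strand peaks of the 6 genes, the share nearest the start was 0.48 points lower in the pull-downs, and the exact permutation p was 1. Written as pull-down minus input, this is -0.48, and it changed sign when single libraries were left out.

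**Figure D4:**
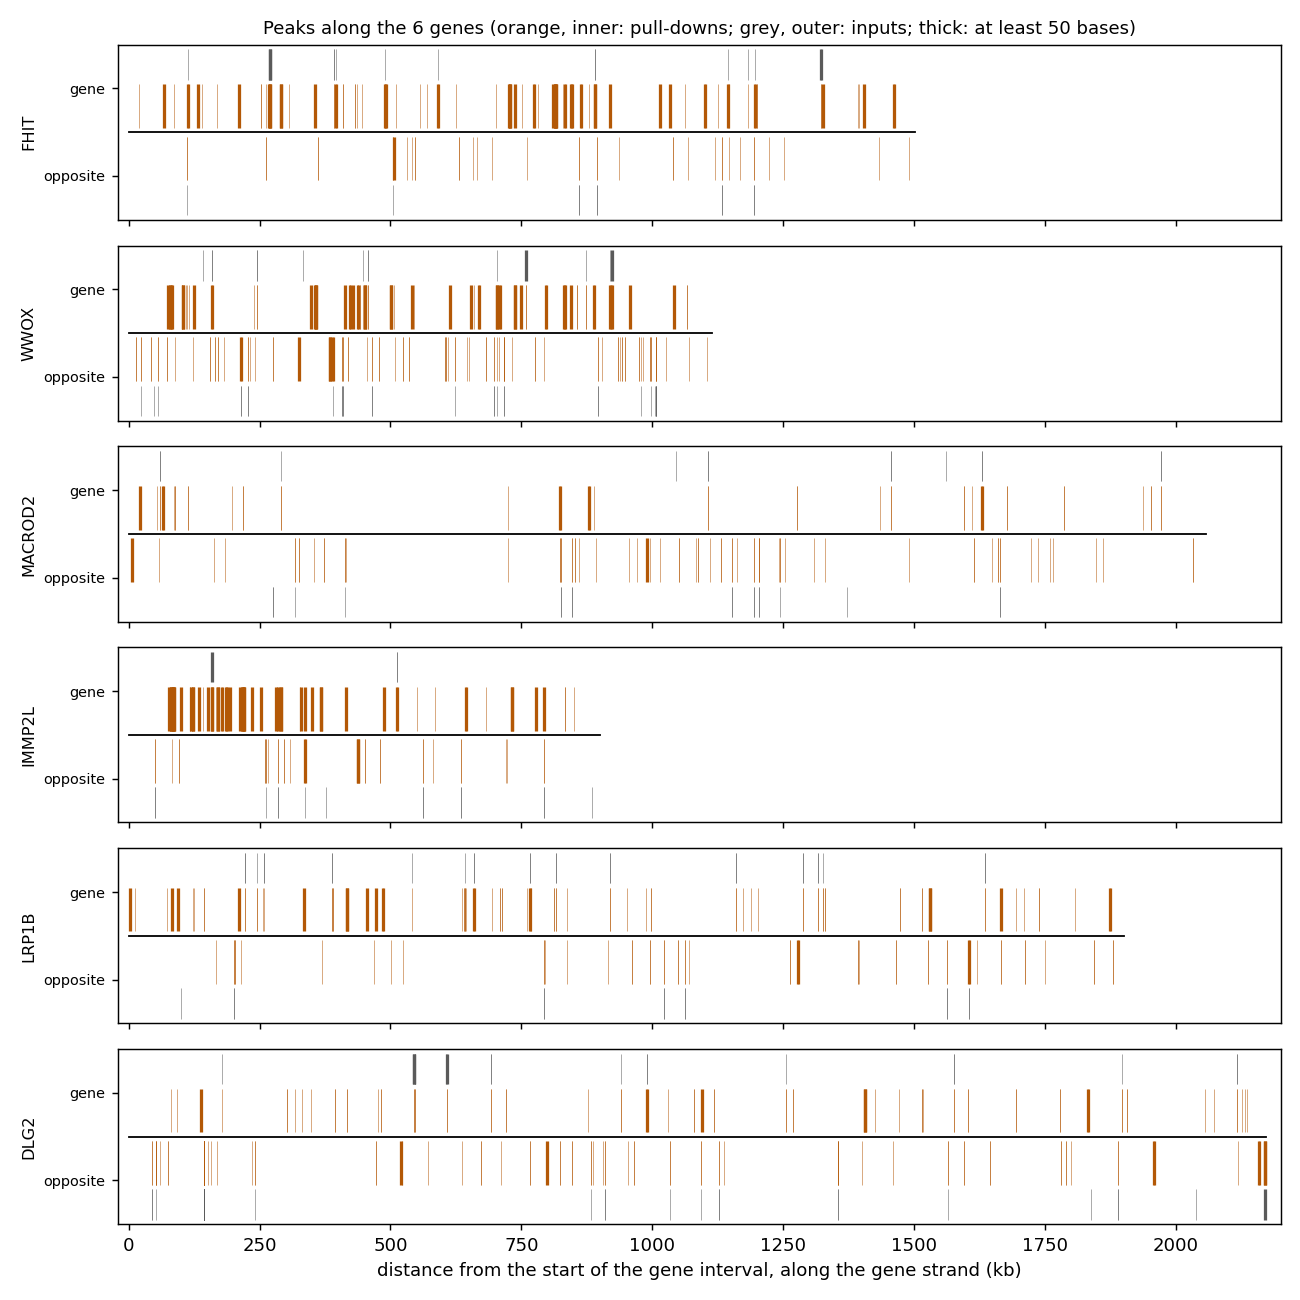
Position of every peak along the 6 genes, as distance in kb from the start of the interval in the direction of transcription (horizontal axis), 1 panel per gene; marks above the line are on the gene strand and below it on the opposite strand, orange for pull-downs and grey for inputs, thick for peaks of at least 50 bases. Thick orange marks crowd the start side of IMMP2L and run through FHIT and WWOX, and MACROD2 has an empty stretch of 308.5 kb that begins 415 kb from its start.

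The 100 kb of each gene strand with the most pull-down peaks also differed in peak width between genes. Because these windows were chosen on the pull-downs, their excess over the inputs there is no comparison. In IMMP2L, chr7:111000001-111100000 held 0 and 1 input peaks against 8 and 11 after pull-down, of which 5 and 8 were wide. In FHIT, chr3:60400001-60500000 held 0 and 0 input peaks against 5 and 7, of which 4 and 3 were wide. In WWOX, chr16:78500001-78600000 held 1 and 2 against 6 and 9, with 1 and 5 wide. Those of MACROD2, LRP1B and DLG2 held at most 6 peaks in a library, with at most 1 of them wide.

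The longest stretch without a peak on either strand in any library was 308.5 kb in MACROD2, chr20:14391605-14700099, which is 14.99% of the gene. The mean spacing of the 142 MACROD2 peaks of all libraries is 14.5 kb. Of 161115 peak-free stretches in the genome, 61 were at least as long, assembly gaps included. In the other 5 genes the longest peak-free stretch was 50.9 to 119.3 kb, and in IMMP2L it lay at the very start of the interval.

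Sites present in both pull-downs on the same strand, by an overlap of at least 1 base, and overlapping no peak of either input were counted as input-free. The 6 genes had 79 input-free sites among 128 shared sites on the gene strand (61.7%) and 67 among 125 on the opposite strand (53.6%). Over the genome the share was 57.0%, 35889 of 62968 sites. Because the input lists are shorter, the count by itself is no comparison. The strands differed in what these sites looked like: 35 of the 79 gene-strand sites were wide (44.3%), against 5 of the 67 opposite-strand sites (7.46%) and 21.6% over the genome. By gene, the gene strand had 16 such sites in DLG2, 15 in WWOX, 15 in LRP1B, 13 in FHIT, 10 in MACROD2 and 10 in IMMP2L. Wide sites were 8 of the 10 in IMMP2L, 10 of the 15 in WWOX and 9 of the 13 in FHIT.

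The authors' score, whose meaning is not stated, ranks peaks within a list, here with the highest score as rank 1. Of the input-free sites on the gene strand of the 6 genes, the one with the mean rank nearest to 1 was a site of 14 bases in DLG2, chr11:84069436-84069449, ranked 16244 of 96061 and 14936 of 111256 in the pull-down lists. In FHIT the top-ranked one was chr3:60985285-60985295, of 11 bases, and in WWOX chr16:78556004-78556031, of 28 bases, with ranks between 22099 and 32622. In MACROD2 it was chr20:15572210-15572224 and in LRP1B chr2:141416700-141416721, with ranks between 26643 and 39506. Both top-ranked sites of IMMP2L were wide, chr7:111023832-111023892 and chr7:110558414-110558554, of 61 and 141 bases, and they ranked from 43302 to 56182. The gene with the largest ratio between pull-down and input thus had a first site ranked below the first site of each other gene. These ranks lie near the middle of the lists, and the second WWOX site, of 216 bases, ranked close to them, at 44871 and 43302. Wide gene-strand peaks scored low in general: in the pull-downs their median score was 12 to 15, by width class and library, against 17.5 to 21 for narrow ones.

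Not all member peaks came back in the replicate. On the gene strand, 128 of 185 peaks of pull-down replicate 1 (69.2%, with a Wilson interval of 62.2% to 75.4%) were met by a peak of replicate 2, and 128 of 237 peaks of replicate 2 (54.0%, 47.6% to 60.2%) by one of replicate 1. The whole lists gave 65.6% and 56.7%, so the members lay near them. Wide gene-strand peaks came back less often in value, at 62.3% and 40.7%, than narrow ones, at 72.6% and 62.3%, and the difference was not tested. On the opposite strand 71.6% and 64.8% came back.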

How the data were processed

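Per the labels' protocols, RNA-protein complexes of input and SAF-A pull-down were cut from a membrane after gel separation and sequenced as single libraries. STAR, featureCounts and GRCh38 appear in the submitters' processing notes without versions, and which program called the peaks is not given in the sources. The authors deposited 1 list of peaks per sample, which is how peaks were called. Each peak carries a score from the authors, a whole number of 10 or more with no stated meaning; it served only to rank or filter peaks inside a list. The other deposited values are positions.

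The 6 genes were named with all members and values, and their intervals were given on GRCh37; 1 further member is not reported here, and its interval was kept out of all totals and of the other windows. The members, lists and the width limit of 50 bases were chosen with earlier results of these data known; the contrast of strand ratios between groups and the chains of peaks were added after the lists were examined. A peak belonged to the interval or 1 Mb window that held its midpoint. limma 3.58.1 (lmFit, eBayes with a mean trend; R 4.3.3) was run on the whole table with Benjamini-Hochberg adjustment, and was tested on simulated lists. Single values over samples used exact permutation tests. Site rules were: the 2 mean score ranks nearest to 1 per gene, on the gene strand, the 100 kb window with the most pull-down peaks and the longest peak-free stretch. Alternatives covered list length, score, width, strand neighbours, merging, windows, minimum and added counts, scaling, the replicate block and leaving out each library. The list of other fragile site genes was not used here, and no sequences are printed, since no genome or gene table on GRCh37 was used.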

Additional observations from a re-analysis of the deposited data

Results flagged for a closer look

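IMMP2L passed the test of a difference in strand ratio between pull-down and input, a contrast added after the lists had been examined. Its log2 ratio of gene strand over opposite strand was -1.94 over the inputs and 0.92 over the pull-downs, a difference of 2.86 (limma adjusted p = 0.032). Without input replicate 1, pull-down replicate 1 or pull-down replicate 2 it did not pass (limma adjusted p of 0.081, 0.48 and 0.48), at differences of 2.68, 3.12 and 2.60. The inputs held 1 and 2 peaks on the gene strand of IMMP2L against 6 and 8 on the opposite strand. Both inputs leaned to the opposite strand and both pull-downs to the gene strand. With wide peaks alone the difference was 2.76 and with narrow peaks alone 1.497, and neither passed (limma adjusted p of 0.10 and 0.11). Among the 50% of peaks with the higher scores it was 0.14 (limma adjusted p = 0.90). The part of peak width and score rank in the result was not tested.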

How the results depend on the processing

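No result reported with an exact permutation test could pass 0.05 under any alternative. The strand difference of 10.5 points was 3.84 at equal list length, 7.75 with merged peaks and 3.03 with narrow peaks alone. It was -0.18 in the higher-scoring 50% of each list, -4.94 with wide peaks alone and 8.59 to 12.5 with a library left out. The log2 density of gene over flank in the pull-downs, 0.25 over all peaks, was -0.24 at equal list length, -0.22 in the higher-scoring 50%, -0.25 with narrow peaks, 2.25 with wide peaks and 0.014 against flanks of 500 kb. Input-free gene-strand sites numbered 5 at equal list length, 26 in the higher-scoring 50%, 45 with narrow and 20 with wide peaks, both looked up among peaks of their own class alone. The share of gene-strand peaks found again was 30.1% for wide peaks looked up among wide peaks alone and 44.3% when 50% of both peaks had to overlap. The difference in the share nearest the start, -0.48 points, was -5.54 to 4.59 with a library left out, -10.2 in the higher-scoring 50% and -15.01 with wide peaks.

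limma called 1 gene strand of the 1 tested at equal list length (LRP1B), against 35.9% of 423 features, 0 of 3 in the higher-scoring 50%, against 30.3% of 630, where 256 features had an unadjusted p under 0.05, and 0 of 5 with narrow peaks, where 667 did; leaving out a library gave 1 to 3. Strand imbalance was called in 3 of 5 genes at equal list length, against 41.9% of 1232 features, in 3 of 6 in the higher-scoring 50%, against 37.0% of 1788, and in 3 of 3 tested with wide peaks, against 64.2% of 391, and in 0 to 5 with a library left out. Ratios of pull-down over input that turned sign, none of which passed, were LRP1B in the higher-scoring 50% (-0.21) and without input replicate 2 (-0.016, range to 0.29), DLG2 with both strands together (-0.076), and WWOX (-0.011), MACROD2 (-0.17) and LRP1B (-0.27) with narrow peaks. The strand ratios of WWOX and IMMP2L turned to 1.93 and 2.17 with wide peaks. The change of strand ratio turned in WWOX at equal list length (-0.14) and in the higher-scoring 50% (-0.57), and in DLG2 with merged peaks (-0.023). The causes were not tested. With the replicate block, limma called 3 of the 6 gene strands and 873 of 3217 features, and the block changed none of the 6 gene-strand calls. Deviations of samples with the same number correlated at 0.089 over features. This low value cannot show whether samples with the same number were prepared together, and the labels do not say. The strand ratios were not fitted with the block. Over all features, the 702 calls between groups became 152 at equal list length, 191 in the higher-scoring 50%, 230 with narrow and 146 with wide peaks, 298 with a minimum mean of 20 and 335 to 1433 with a library left out. The 1260 strand calls became 516, 661, 1135, 251, 803 and 0 to 1347 in the same order, and the 92 changes of strand 27, 35, 7, 1, 172 and 0 to 249. List length and the low input counts limit precision, since read depth is unknown.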
